A study of Mus musculus with 24 samples.

Results

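Vmp1 and 9 further genes of autophagy were described in RNA sequencing libraries of mouse hearts. The 10 genes, Vmp1, Becn1, Sqstm1, Map1lc3a, Map1lc3b, Gabarapl1, Ulk1, Atg5, Atg7 and Bnip3l, were taken by symbol from a table of 21878 genes. All 10 were found, and all 10 were among the 13501 genes that passed the filter on low counts. The hearts came from ovariectomised mice and were collected 3 weeks after myocardial infarction. Each mouse had received the adeno-associated virus AAV9, either empty or made to overexpress miR-21, and before the infarction had either swum as training or served as a control. The comparisons ask which genes differ with miR-21 overexpression and with swimming. Of the 4 groups, empty vector control, empty vector swimming and miR-21 vector control held 6 libraries each, and miR-21 vector swimming held 5. A sixth sample of the last group was not analysed here. The labels give the tissue as heart, and do not name the promoter of the vector, when it was given, the strain, the age or the region sampled. The labels do not say whether every library is its own mouse, so the tests reflect only sample-to-sample spread, which may be technical. All 4 groups share the ovariectomy, the virus and the infarction, so no group is an intact or uninjured heart.

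Autophagy encloses cytoplasm, damaged mitochondria or protein aggregates in a double membrane, the autophagosome, which then fuses with lysosomes. The kinase ULK1 starts the process, and Beclin 1, the product of Becn1, activates the lipid kinase that marks the site. VMP1, a membrane protein of the endoplasmic reticulum, moves lipids between membrane leaflets and is needed for the growing membrane to separate from the endoplasmic reticulum. ATG7 and ATG5 act in the conjugation of the Atg8 proteins, here LC3A, LC3B and GABARAPL1, to the membrane. The receptors p62, the product of Sqstm1, and BNIP3L bind Atg8 proteins and bring in ubiquitinated cargo and mitochondria. In the heart, autophagy is known for clearing mitochondria and protein aggregates from long-lived cardiomyocytes. Transcript levels are not a measure of autophagic flux.

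Vmp1 also carries the gene of the microRNA that the vector overexpressed, and the 2 mature strands of that microRNA are shown because they link Vmp1 to the design. In RefSeq (GRCm38.p6) the miR-21a hairpin spans 92 bases on the minus strand of chromosome 11, from 86584067 to 86584158. It lies inside the last exon of 1 of the 8 Vmp1 models of the GENCODE annotation of that build, exon 12 of Vmp1-201, on the same strand and within its 3′ untranslated region. The gene of Vmp1 itself spans 86583865 to 86683836 in that annotation. The mature strands are printed 5′ to 3′ with bases 2 to 8, the seed, in capitals.
mmu-miR-21a-5p: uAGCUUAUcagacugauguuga
mmu-miR-21a-3p: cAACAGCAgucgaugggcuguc
The DNA letters that pair with the seed of the 5p strand are ATAAGCT. They were in the 3′ untranslated region of 0 of the 10 genes (longest annotated model of each), against 7.81% of 12969 tested genes, which says only that these letters are not in those regions. No row of the count table was named Mir21a, so the microRNA itself was not measured here. Reads from a longer transcript that runs through the hairpin cannot be told apart from Vmp1 reads in these counts.

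Libraries held 12744241 to 14657630 counts each, with overlapping ranges in the 4 groups, and no pair of libraries had identical counts. All 9 cardiomyocyte markers were detected in every library and summed to 62413 to 126695 CPM (counts scaled to library size by the TMM method). In 3 libraries, empty vector control replicates 2 and 5 and miR-21 vector swimming replicate 2, the adipocyte markers stood apart. Adipoq was at 382 to 459 counts in these 3 and at 0 to 31 counts in the other 20, Plin1 at 143 to 182 against 0 to 11, and Lep at 15 to 24 against 0 to 3, with 15 of the 20 at 0. Of the 7 adipocyte markers 4 passed the count filter, and their sum, mostly Fabp4, which did not separate the libraries, was 620 to 938 CPM in empty vector control, 718 to 861 in empty vector swimming, 618 to 894 in miR-21 vector control and 586 to 782 in miR-21 vector swimming. The same 3 libraries had the highest fibroblast, macrophage and neutrophil scores and the lowest cardiomyocyte scores of the 23 (a score is the mean difference of a list's log2 CPM from the mean library). Their fibroblast scores were 1.13 to 1.38, and the next was 1.03. They are called the adipocyte-high libraries below, and differences that move with them are given with and without them. In the sample titles the libraries of both control groups and the first 2 miR-21 vector swimming libraries carry numbers of a lower series. The other swimming libraries carry numbers of a higher one, so number series and swimming cannot be told apart under the empty vector. Only miR-21 vector swimming holds libraries of both series. A series term in a model is therefore estimated from that group alone, where the lower series holds the adipocyte-high replicate 2. In such bulk samples fewer cells of a type and less RNA per cell cannot be told apart.

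The 10 genes covered a wide range of levels. Per length, as the deposited FPKM, which divide counts by gene length and library total (mean over 23 libraries), Map1lc3a was highest at 475. Sqstm1 followed at 222, Map1lc3b at 149, Gabarapl1 at 65.8 and Becn1 at 34.4, and these 5 held the same order in every library. Ulk1 at 20.3, Bnip3l at 18.2 and Vmp1 at 15.8 FPKM changed places between libraries and do not differ in order beyond their spread. Atg5 at 7.40 and Atg7 at 4.41 FPKM were the lowest of the 10 in all 23 libraries. In CPM, the spread over all 23 libraries was widest for Vmp1, with a coefficient of variation of 20.04% and a 2.26-fold range. It was narrowest for Bnip3l, at 4.94% and 1.23-fold. Without the adipocyte-high libraries Vmp1 ranged from 39.1 to 61.2 CPM. In fold terms that range was narrower than those of Ulk1 (83.7 to 157), Sqstm1 (377 to 717) and Gabarapl1 (88.3 to 158).

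Vmp1 was lower in hearts of swimming mice than in control hearts under the empty vector. Over the 23 libraries, no other gene of the 10 passed the edgeR test of the 4 groups alone in any of the 5 comparisons made. Vmp1 measured 55.7, 88.3, 54.3, 52.5, 63.4 and 56.7 CPM in empty vector control replicates 1 to 6. In the 6 empty vector swimming replicates it measured 46.0, 50.3, 40.2, 46.2, 45.1 and 45.8 CPM. The groups did not overlap: the highest swimming library was below the lowest control library. How many of all tested genes also lacked overlap was not counted, in this comparison or in those below. The difference was -0.44 ± 0.12 on the log2 scale (SE, 0.738-fold), with an edgeR quasi-likelihood adjusted p of 0.0309, and 6 of 6 swimming libraries were below the control mean. So 1 of the 10 genes was called in this comparison, where 7.46% of all tested genes were called, 4.18% higher and 3.28% lower. In the authors' deposited table the same comparison has a log2 fold change of -0.44 with a q-value of 0.0723.

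The 3 adipocyte-high libraries held the 3 highest Vmp1 values of all 23, at 63.4, 68.4 and 88.3 CPM, against 39.1 to 61.2 CPM in the other 20. Without them the empty vector difference was -0.27 ± 0.07 (edgeR adjusted p = 0.0158), smaller in size and still called, where 11.6% of all genes were called. Adding the scores of adipocyte and mesothelial markers to the model gave -0.11 ± 0.10 (edgeR adjusted p = 0.491). Adipocyte scores were -0.43 to 4.06 in empty vector control and -1.48 to -0.52 in empty vector swimming. They did not overlap, so this score and swimming are hard to tell apart here. Adding the number series, a term estimated from the miR-21 vector swimming libraries alone, gave -0.23 ± 0.23 (edgeR adjusted p = 0.696). Without empty vector control replicate 2 alone the empty vector difference was -0.32 with an edgeR adjusted p of 0.0635. The call was also lost, at adjusted p of 0.0539 to 0.0736 and differences of -0.41 to -0.45, without empty vector control replicate 5 or without empty vector swimming replicate 1, 3, 5 or 6.

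In miR-21 vector control, Vmp1 ranged from 47.6 to 61.2 CPM with a median of 54.7. In miR-21 vector swimming replicates 1 to 5 it measured 39.1, 68.4, 46.7, 48.2 and 44.5 CPM, and replicate 2, an adipocyte-high library, was above all others of both miR-21 groups. All other comparisons of Vmp1 were between overlapping groups. Between the vectors, miR-21 against empty, Vmp1 differed by -0.20 ± 0.12 in control mice (edgeR adjusted p = 0.262) and 0.12 ± 0.13 in swimming mice (adjusted p = 0.66). Without the adipocyte-high libraries these were -0.029 ± 0.071 (adjusted p = 0.853) and -0.028 ± 0.072 (adjusted p = 0.831). Without empty vector control replicate 2 alone the value in control mice was -0.061, and without miR-21 vector swimming replicate 2 alone that in swimming mice was -0.022. Swimming mice given the miR-21 vector differed from their controls by -0.12 ± 0.13 (adjusted p = 0.614). The swimming effect under the miR-21 vector minus that under the empty vector was 0.32 ± 0.18 (adjusted p = 0.293), with an approximate 95% interval of -0.03 to 0.67. With the adipocyte-high libraries left out, swimming under the miR-21 vector gave -0.26 ± 0.07 (adjusted p = 0.0767), beside the -0.27 under the empty vector, and the difference of these effects was 0.00 ± 0.10 (adjusted p = 0.998). A difference between the vectors in the response of Vmp1 to swimming was thus not called with or without these libraries.

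**Figure D1:**
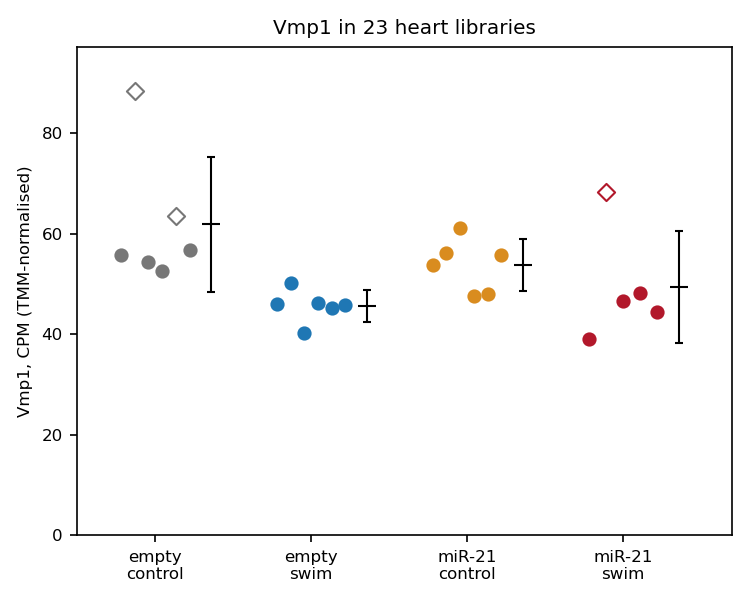
Vmp1 level (y axis, TMM-normalised CPM, from 0) in each library of the 4 groups (x axis). Points are libraries, open diamonds are the 3 adipocyte-high libraries, and the bar beside each group is the mean with its SD. The 6 empty swim points lie between 40.2 and 50.3 CPM, below all 6 empty control points, and the open diamonds are the highest points of their groups.

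None of the 5 genes within 100 kb of Vmp1 that were looked up was called between empty vector swimming and control. In that comparison 7.46% of all genes were called, so none of 5 is near that share. Ptrh2, which encodes a mitochondrial peptidyl-tRNA hydrolase and lies 0.238 kb from Vmp1 in RefSeq, differed by 0.11 ± 0.09 between empty vector swimming and control (edgeR adjusted p = 0.465). Cltc, the clathrin heavy chain, differed by -0.04 ± 0.06 and Tubd1, delta tubulin, by -0.07 ± 0.11, neither called. Rps6kb1, a kinase below mTOR that is 39 kb away, was at -0.05 ± 0.05 and Rnft1, a ubiquitin ligase 84.9 kb away, at 0.06 ± 0.06, also not called. In swimming mice, the miR-21 vector against the empty vector gave 0.19 ± 0.05 for Rps6kb1 (adjusted p = 0.0355) and -0.25 ± 0.07 for Rnft1 (adjusted p = 0.038), each in 5 of 5 libraries. Of all genes tested 4.58% were called there. The calls of Rps6kb1 and Rnft1 held in 17 and 9 of the 23 fits that left out 1 library. Ptrh2 was at -0.25 ± 0.09 there (adjusted p = 0.121). Heatr6, much farther away on the same chromosome, fell by 0.21 ± 0.06 with swimming under the empty vector (adjusted p = 0.0367), a call that held in 16 of 23 such fits.

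Over the 23 libraries the genes with log2 CPM most like Vmp1, by Pearson's r and as a description, were Angptl4 (0.86), Mt2 (0.85), Psen2 (0.83), Traf1 (0.83) and Slc8b1 (0.82). Angptl4 encodes an inhibitor of lipoprotein lipase, Mt2 a metallothionein and Psen2 a subunit of gamma-secretase. Over the 20 libraries other than the adipocyte-high ones their r was 0.53 to 0.68. The lowest r were those of Fam57b (-0.88), Pde1c (-0.88), Perp (-0.87), Mylk3 (-0.84), the cardiac myosin light chain kinase, and Sptbn1 (-0.83). After each group's mean was subtracted, the highest were Mfsd1 (0.90), Snx2 (0.90), Fam107b (0.89), Pid1 (0.89) and Ncapg2 (0.89), and these 5 ranged from -0.26 to 0.10 without the adipocyte-high libraries and without centring. Among the 9 other autophagy genes r with Vmp1 was highest for Atg5 (0.51) and lowest for Map1lc3a (-0.46). Over those 20 libraries Becn1 was highest at 0.68 and Map1lc3a was at 0.38, so the sign of the relation to Map1lc3a turned with 3 libraries. All libraries share sequencing depth, composition and scaling, so these values describe likeness across libraries and nothing further.

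In the 4 comparisons other than swimming under the empty vector, none of the 10 genes was called by the edgeR fit of the 4 groups alone over the 23 libraries. Between the vectors in control mice, the test gave 0 of 10 called by edgeR (2.25% of all genes were called, 0.881% higher and 1.37% lower). At an unadjusted p under 0.05 were 2 of the 10 and 3828 of all 13501 genes. DESeq2 called 0 of the 10 and 9.15% of all genes. In swimming mice the vectors gave 0 of 10 (4.58% of all genes, 1.87% higher and 2.71% lower). Here 3 of the 10 and 2678 of all genes were at an unadjusted p under 0.05. DESeq2 again called 0 of the 10, and 7.18% of all genes. With limma voom 2 of the 10 and 19.8% of all genes were called. With adipocyte and mesothelial scores in the edgeR model these were 2 of the 10 and 16.9%. Swimming under the miR-21 vector gave 0 of 10 (0.170% of all genes, 0.0518% higher and 0.119% lower). Here 1 of the 10 and 2532 of all genes were at an unadjusted p under 0.05. DESeq2 called 0 of the 10 and 2.80% of all genes. The difference of the swimming effects gave 0 of 10 by edgeR (0.541% of all genes, 0.326% higher and 0.215% lower). Here 2 of the 10 and 2899 of all genes were at an unadjusted p under 0.05. DESeq2 called 1 of the 10, Map1lc3a, and 5.33% of all genes. The authors' deposited table has no q-value under 0.05 for any of the 10 genes in its 4 comparisons of these groups.

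**Figure D2:**
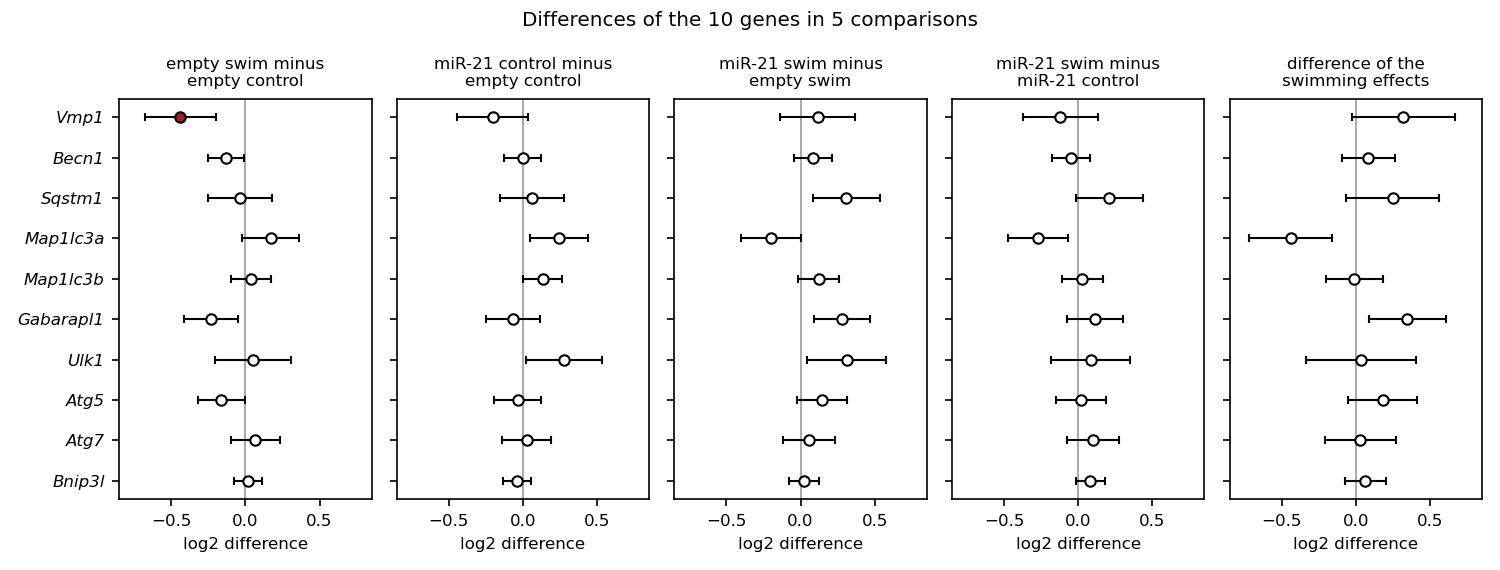
Differences of the 10 genes (rows) in 5 comparisons (panels), on the log2 scale of the edgeR fit (x axis). Bars are approximate 95% intervals, and a filled point has an adjusted p under 0.05. Vmp1 at -0.44 in the first panel is the 1 filled point.

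Of the genes that start autophagy, neither Ulk1 nor Becn1 was called by the edgeR fit of the 4 groups alone over the 23 libraries. Ulk1, the kinase of the initiation complex, ranged from 83.7 to 120 CPM in empty vector control (median 107) and from 94.2 to 137 CPM in empty vector swimming (median 104). In miR-21 vector control it ranged from 99.95 to 148 CPM (median 124), and in the 5 miR-21 vector swimming libraries it measured 157, 88.7, 145, 131 and 147 CPM. All 4 ranges overlapped, and replicate 2, the adipocyte-high library, was the lowest of the last group. The miR-21 vector against the empty vector gave 0.28 ± 0.13 in control mice (edgeR adjusted p = 0.167) and 0.31 ± 0.14 in swimming mice (adjusted p = 0.202). Without the adipocyte-high libraries the value in control mice was 0.21 ± 0.12 (adjusted p = 0.316), and the difference in swimming mice was 0.43 ± 0.12 and was called (adjusted p = 0.0156). Leaving out miR-21 vector swimming replicate 2 alone gave 0.44 ± 0.12 (adjusted p = 0.0175). With adipocyte and mesothelial scores in the edgeR model over all 23 libraries, the vectors in swimming mice differed by 0.45 ± 0.11 (adjusted p = 0.00723). There 16.9% of all genes were called. Swimming itself gave 0.05 ± 0.13 under the empty vector and 0.08 ± 0.14 under the miR-21 vector, neither called.

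Becn1, the activator of the autophagy lipid kinase, ranged from 65.6 to 80.8 CPM in empty vector control (median 71.8) and from 61.4 to 72.0 CPM in empty vector swimming (median 67.5). All 6 swimming libraries were below the control mean, the groups overlapped, and the difference was -0.13 ± 0.06 (edgeR adjusted p = 0.213). It was -0.18 ± 0.06 without the adipocyte-high libraries (adjusted p = 0.0707). In miR-21 vector control Becn1 ranged from 67.1 to 81.4 CPM, and in miR-21 vector swimming from 63.1 to 77.8 CPM. Its other differences lay between -0.05 and 0.08, none called.

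The conjugation genes Atg5 and Atg7 had the lowest levels of the 10. Atg5, which forms the complex with ATG12 that places Atg8 proteins on membranes, ranged from 15.4 to 20.6 CPM in empty vector control and from 15.2 to 19.4 CPM in empty vector swimming. Its difference there was -0.16 ± 0.08 (edgeR adjusted p = 0.236), with 5 of 6 swimming libraries below the control mean, and -0.098 ± 0.088 without the adipocyte-high libraries (adjusted p = 0.53). In miR-21 vector control it ranged from 15.2 to 20.7 CPM, and in miR-21 vector swimming from 16.7 to 20.5 CPM. Atg7, the enzyme that activates Atg8 proteins for conjugation, ranged from 16.1 to 20.8, 16.1 to 21.4, 16.3 to 20.2 and 16.7 to 21.9 CPM in the same 4 groups. Its largest difference was 0.10 ± 0.09, for swimming under the miR-21 vector (adjusted p = 0.53).

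None of the Atg8 genes was called by the edgeR fit of the 4 groups alone over the 23 libraries. Map1lc3a, which encodes LC3A, ranged from 341 to 540 CPM in empty vector control (median 474), 487 to 560 in empty vector swimming (median 518) and 521 to 587 in miR-21 vector control (median 541). In miR-21 vector swimming replicates 1 to 5 it measured 460, 344, 479, 465 and 523 CPM. The 3 adipocyte-high libraries, at 341, 344 and 413 CPM, were the 3 lowest of all 23, and the other 20 were at 460 to 587 CPM. Swimming gave 0.17 ± 0.10 under the empty vector (edgeR adjusted p = 0.309) and -0.27 ± 0.10 under the miR-21 vector (adjusted p = 0.182). Without the adipocyte-high libraries these were 0.042 ± 0.059 (adjusted p = 0.717) and -0.18 ± 0.06 (adjusted p = 0.137). Over all 23 libraries the difference of these effects was -0.44 ± 0.14 (edgeR adjusted p = 0.102), with an approximate 95% interval of -0.72 to -0.16. DESeq2 called it (adjusted p = 0.0398), as it did 5.33% of all genes. The value without the adipocyte-high libraries was -0.22 ± 0.08 (adjusted p = 0.238). The miR-21 vector against the empty vector gave 0.24 ± 0.10 in control mice (adjusted p = 0.123), and 0.12 ± 0.06 without those libraries (adjusted p = 0.254). Without miR-21 vector swimming replicate 2 it was 0.25 ± 0.08 with an adjusted p of 0.037, where 21.3% of all genes were called. That library is in neither group and enters through the shared estimate of the spread. With the number series as a term, swimming under the miR-21 vector gave -0.45 ± 0.13 (edgeR adjusted p = 0.0451), where 7.97% of all genes were called. That term is estimated from the miR-21 vector swimming libraries alone, and their lower series holds the adipocyte-high replicate 2.

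Map1lc3b, which encodes LC3B, the form most used to follow autophagosomes, had a narrow range. It lay between 216 and 259 CPM in empty vector control, 239 and 256 in empty vector swimming and 243 and 296 in miR-21 vector control. The 5 miR-21 vector swimming libraries measured 284, 226, 310, 259 and 273 CPM, so 4 were above all 6 empty vector swimming libraries and replicate 2 was below them. The miR-21 vector against the empty vector in swimming mice gave 0.12 ± 0.07 (edgeR adjusted p = 0.339). Without the adipocyte-high libraries it was 0.19 ± 0.06 and was called (adjusted p = 0.032), and without replicate 2 alone it was 0.19 ± 0.06 (adjusted p = 0.0457). With adipocyte and mesothelial scores in the edgeR model over all 23 libraries it was 0.19 ± 0.06 (adjusted p = 0.0308). With Ulk1, Map1lc3b made 2 of 10 genes called without the adipocyte-high libraries, where 17.3% of all genes were called. It was also 2 of 10 without replicate 2, where 13.8% were, and with the marker scores, where 16.9% were. A share of 2 in 10 is near these backgrounds.

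Gabarapl1, the third Atg8 gene, ranged from 105 to 137 CPM in empty vector control (median 120), 88.3 to 123 in empty vector swimming (median 100.4) and 101 to 124 in miR-21 vector control (median 118). In miR-21 vector swimming it measured 117, 128, 158, 117 and 110 CPM, and the 158 of replicate 3 was the highest of all 23 libraries. Swimming under the empty vector gave -0.23 ± 0.09 (edgeR adjusted p = 0.127), with 5 of 6 libraries below the control mean. The miR-21 vector against the empty vector in swimming mice gave 0.28 ± 0.10 (adjusted p = 0.0978), with 5 of 5 libraries above the empty vector mean, 0.28 ± 0.10 without the adipocyte-high libraries (adjusted p = 0.0536), and 0.18 without replicate 3 (adjusted p = 0.279). The difference of the swimming effects was 0.35 ± 0.13 (adjusted p = 0.147).

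Of the cargo receptors, Sqstm1 varied with single libraries and Bnip3l hardly varied. Sqstm1, which encodes p62, ranged from 367 to 542 CPM in empty vector control (median 415), 377 to 466 in empty vector swimming (median 420) and 382 to 496 in miR-21 vector control (median 452). In miR-21 vector swimming it measured 457, 506, 717, 467 and 436 CPM, and replicate 3 at 717 was the highest of all 23. In swimming mice, miR-21 vector against empty vector, the difference was 0.31 ± 0.12 (edgeR adjusted p = 0.131), with 5 of 5 libraries above the empty vector mean and overlapping ranges. It was 0.16 without miR-21 vector swimming replicate 3 (adjusted p = 0.399), and 0.32 ± 0.12 without the adipocyte-high libraries (adjusted p = 0.0691). Bnip3l, which encodes the mitophagy receptor also called NIX, ranged from 58.9 to 69.0, 62.2 to 68.5, 59.4 to 66.9 and 63.3 to 72.5 CPM in empty vector control, empty vector swimming, miR-21 vector control and miR-21 vector swimming. Its differences lay between -0.04 and 0.08, none called. Across the 23 libraries Sqstm1 and Gabarapl1 had the highest correlation of the 45 pairs of the 10 genes, with Pearson's r of 0.82 and Spearman's rho of 0.73. It was 0.69 without the 2 libraries farthest from the median of Sqstm1 and 0.87 without the adipocyte-high libraries.

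**Figure D3:**
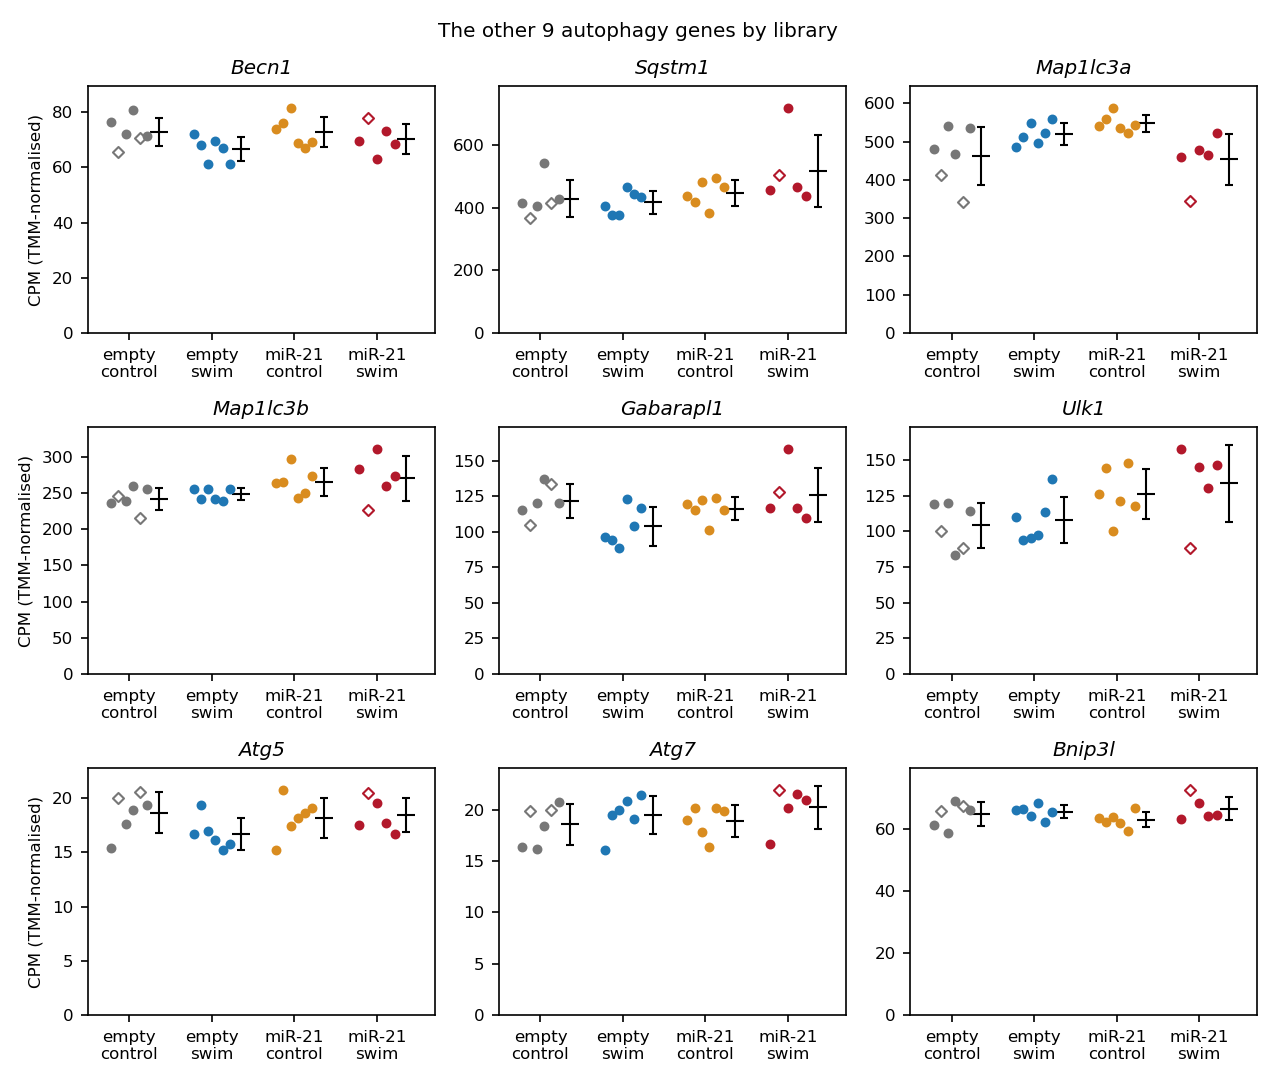
Levels of the 9 genes other than Vmp1 (y axes, TMM-normalised CPM, from 0) in each library of the 4 groups (x axes). Points are libraries, open diamonds the adipocyte-high ones, and bars beside the groups the mean with SD. The Map1lc3a diamonds, at 341, 344 and 413 CPM, are the lowest of its points, and miR-21 swim replicate 3 is the highest point for Sqstm1 (717 CPM) and Gabarapl1 (158 CPM).

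Vmp1 and Map1lc3a thus lay at opposite ends in the same 3 libraries. The part of adipose or other tissue in these values was not tested. Among the other 8 genes, Atg7 and Bnip3l each had 1 of the 3 adipocyte-high libraries above all other 20 libraries, Sqstm1 had 1 below them and Map1lc3b had 2 below them.

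**Figure D4:**
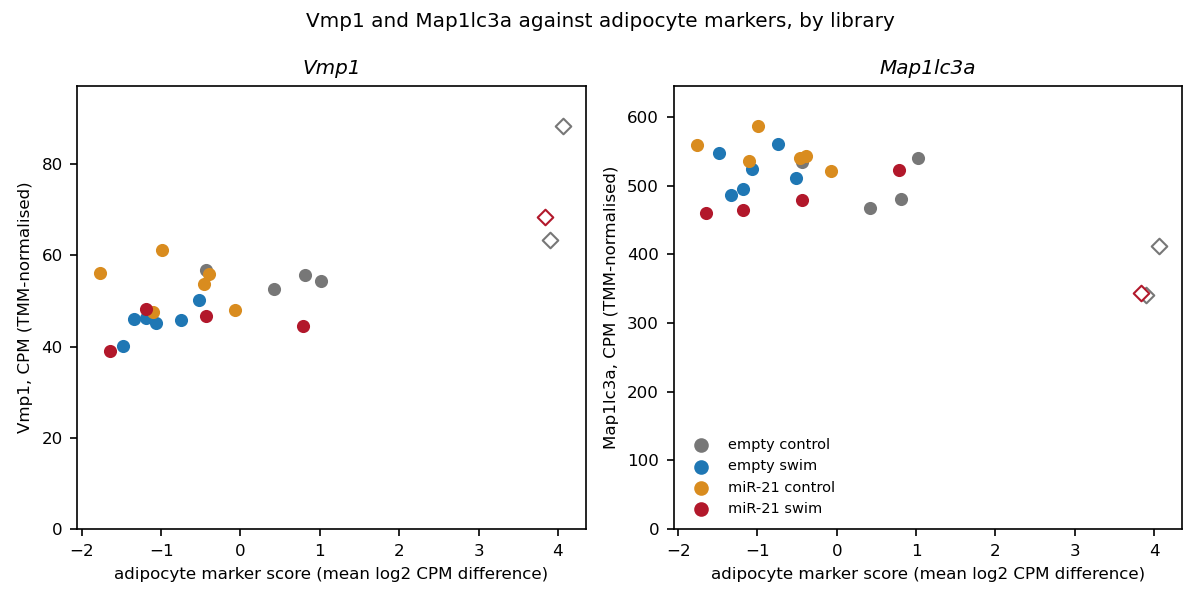
Vmp1 and Map1lc3a (y axes, TMM-normalised CPM, from 0) against the adipocyte marker score (x axis, mean difference of log2 CPM from the mean library), by library and coloured by group. The 3 open diamonds, with scores of 3.83 to 4.06, lie above the other libraries for Vmp1 and below them for Map1lc3a, and the other 20 have scores up to 1.02.

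The wider pathway was read from 11 lists by role, 109 genes with the 10 included, of which 108 were tested. Between empty vector swimming and control 7 of the 108 were lower and 0 higher, with a median of -0.01 beside 0.00 for all genes tested. Of all genes tested 7.46% were called, 3.28% lower, so the 7 of 108 called in either direction are near the share of all genes. Bnip3, the mitophagy receptor related to Bnip3l, fell by 0.56 ± 0.10 on the log2 scale (edgeR adjusted p = 0.00254), from 214 to 146 CPM on average, with no overlap between groups. Atg13, a partner of ULK1, fell by 0.35 ± 0.07 (adjusted p = 0.00476). The lysosomal proteases fell too, Ctsd by 0.24 ± 0.07 (adjusted p = 0.0276) and Ctsl by 0.36 ± 0.10 (adjusted p = 0.0315). Tax1bp1, a receptor for ubiquitinated cargo, fell by 0.16 ± 0.05 (adjusted p = 0.0483), and Tex264, a receptor that delivers endoplasmic reticulum to autophagosomes, by 0.22 ± 0.06 (adjusted p = 0.0382). Vmp1 was the seventh. Each was lower in 6 of 6 swimming libraries than the control mean. Bnip3 and Atg13 were called after leaving out each of the 23 libraries in turn, Ctsd in 21 of these 23 fits, Vmp1 in 17, Ctsl and Tex264 in 16 each and Tax1bp1 in 12. The count of 7 became 2 to 4 without empty vector control replicate 5 or empty vector swimming replicate 1, 2, 3 or 5. In those fits 607 to 683 of all genes were called, beside 1007 over all 23 libraries. The count became 11 without miR-21 vector swimming replicate 2, where 14.2% of all genes were called. With the 3 adipocyte-high libraries left out, 8 were called lower and 1 higher, where 11.6% of all genes were called. The higher gene was Sesn1, a sestrin that restrains mTOR, at 0.51 ± 0.11. Ctsl was not among the called genes. With the number series as a term 0 were called, where 1.21% of all genes were. Marker scores of other cells moved with this comparison. Between empty vector control and empty vector swimming the median score was 1.07 against -0.49 for activated fibroblasts, 1.52 against -1.22 for mesothelium, 0.51 against -0.0031 for fibroblasts and -0.0058 against 0.23 for endothelium. The ranges overlapped for each of these 4 lists. Adipocyte scores were -0.43 to 4.06 in empty vector control and -1.48 to -0.52 in empty vector swimming, without overlap. The part of any of these lists in the 7 values was not tested one by one. With adipocyte and mesothelial scores in the model 18 of the 108 were called, where 16.5% of all genes were.

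Of the 19 lysosomal genes 18 had negative values in that comparison, with a median of -0.10. Over the other 20 libraries 11 of 19 were negative, with a median of -0.05. In swimming mice, miR-21 vector against empty vector, 14 of 19 were positive, with a median of 0.11 beside 0.02 for all genes. Without the adipocyte-high libraries 8 of 19 were positive there, with a median of -0.03. The difference of the swimming effects had a median of 0.23 over these 19 genes, and 0.06 without the adipocyte-high libraries. Macrophage marker scores were -0.35 to 1.54 in empty vector control and -0.44 to 0.48 in empty vector swimming, and their part in the lysosomal values was not tested.

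In swimming mice 4 of the 108 genes were higher and 0 lower with the miR-21 vector than with the empty vector, with a median of 0.10 beside 0.02 for all genes. Of all genes tested 4.58% were called, 1.87% higher, so the 4 of 108 called in either direction are near the share of all genes. Ctsd rose by 0.32 ± 0.07 (edgeR adjusted p = 0.00995), to 1604 to 1671 CPM in the 5 libraries against 1153 to 1407 CPM, with no overlap. Ccpg1, a receptor for endoplasmic reticulum, rose by 0.35 ± 0.06 (adjusted p = 0.00214), and Pik3c3, the lipid kinase that Beclin 1 activates, by 0.24 ± 0.06 (adjusted p = 0.0279), also without overlap. Calcoco1, another receptor, rose by 0.32 ± 0.09 (adjusted p = 0.0347) in 4 of 5 libraries. Ctsd and Ccpg1 were called in all 23 fits that left out 1 library, Pik3c3 in 20 and Calcoco1 in 17. Without miR-21 vector swimming replicate 3 the count was 2, where 417 of 13611 genes were called. Without miR-21 vector swimming replicate 2 it was 22 higher and 1 lower, where 13.8% of all genes were called, and without all 3 adipocyte-high libraries it was 22 higher and 2 lower, 24 of 108 where 17.3% of all genes were called. The 22 included Ulk1 (0.43), its partner Rb1cc1 (0.35 ± 0.07), Atg9a (0.38 ± 0.06), a scramblase that brings membrane, and Bnip3 (0.36 ± 0.08). They also included the mitophagy kinase Pink1 (0.34 ± 0.10), Fam134b, an endoplasmic reticulum receptor (0.58 ± 0.15), and 7 of 18 genes of autophagy control, among them Mtor (0.24 ± 0.08), Tsc1 (0.27 ± 0.08) and Tsc2 (0.27 ± 0.06). The control list holds both activators and inhibitors of autophagy.

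**Figure D5:**
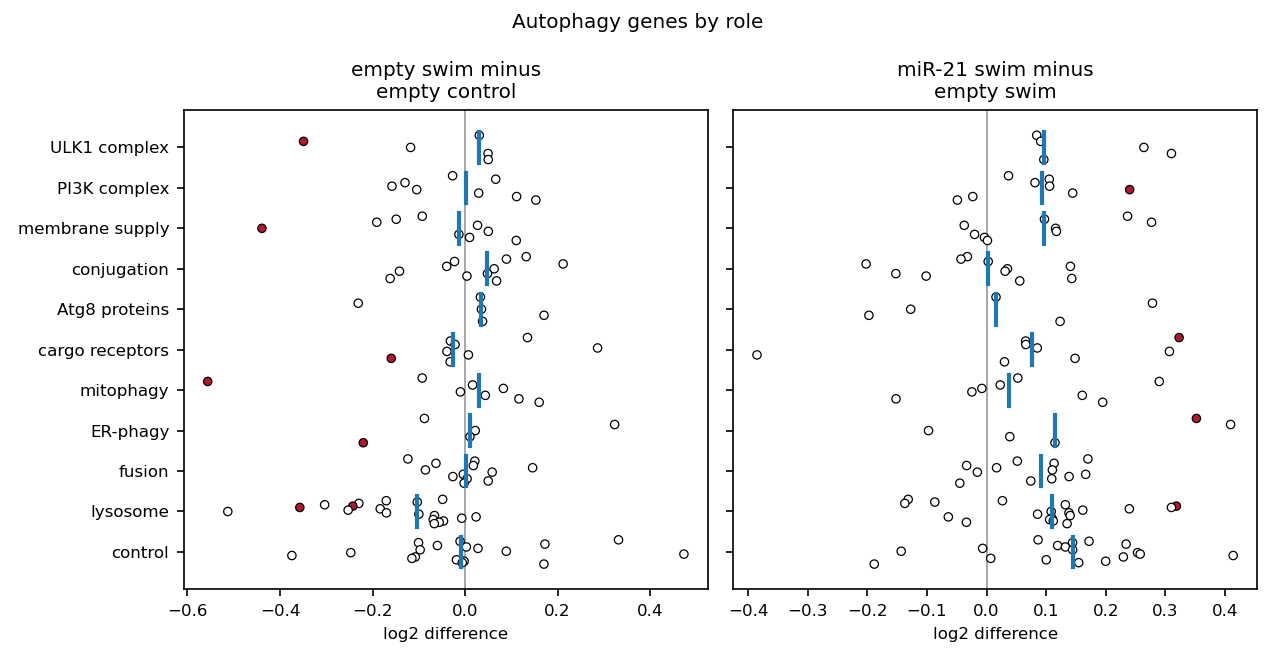
Log2 differences (x axes) of the tested autophagy genes by role (rows), for empty swim minus empty control (left) and miR-21 swim minus empty swim (right). Points are genes, filled where the adjusted p is under 0.05, and blue bars are the median of each list. The lysosome row has 18 of 19 genes below 0 on the left and 14 of 19 above 0 on the right. Without the adipocyte-high libraries, not drawn here, 8 of 19 are above 0 in each comparison.

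In control mice 1 of the 108 genes was higher and 2 were lower with the miR-21 vector, where 2.25% of all genes were called, 0.881% higher and 1.37% lower, so the 3 of 108 are near the share of all genes. Calcoco1 rose by 0.37 ± 0.08 (edgeR adjusted p = 0.0303). Atp6v1h, a subunit of the lysosomal proton pump, fell by 0.45 ± 0.09 (adjusted p = 0.023), and Stbd1, a receptor for glycogen, fell by 0.54 ± 0.13 (adjusted p = 0.0416). Each moved one way in 6 of 6 libraries. Activated fibroblast scores were -1.08 to -0.26 in miR-21 vector control and 0.092 to 1.95 in empty vector control, and cardiomyocyte scores were 0.093 to 0.30 and -0.48 to 0.072, both without overlap. Their part in these values was not tested. With adipocyte and mesothelial scores in the model 0 of the 108 were called, and 1 of all 13501 genes was. Of the 23 fits that left out 1 library, Atp6v1h was called in 19, Calcoco1 in 16 and Stbd1 in 12. The count of 3 became 0 or 1 without empty vector control replicate 4 or 5 or any 1 of the 6 miR-21 vector control libraries. In those fits 17 to 91 of all genes were called, beside 304 over all 23 libraries. The count became 5 without empty vector control replicate 1 or 3 or miR-21 vector swimming replicate 3, where 520 to 709 of all genes were called. The list's median was 0.05 beside 0.00 for all genes. Without miR-21 vector swimming replicate 2, a library of neither group that enters through the shared estimate of the spread, 25 were called, and 21.3% of all genes were; without the 3 adipocyte-high libraries 5 were, beside 5.76% of all genes. Swimming under the miR-21 vector and the difference of the swimming effects gave 0 of 108 called by edgeR, beside 0.170% and 0.541% of all genes. At an unadjusted p under 0.05 were 13 and 19 of the 108, and 2532 and 2899 of all 13501 genes. DESeq2 called 1 and 4 of the 108, beside 2.80% and 5.33% of all genes.

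The comparisons share groups: the difference between the vectors in swimming mice and that between swimming and control under the empty vector use the same 6 empty vector swimming libraries, so Ctsd, lower in the one and higher in the other, rests on those libraries in both. Ctsd measured 1453 to 1628 CPM in empty vector control, 1153 to 1407 in empty vector swimming, 1462 to 1742 in miR-21 vector control and 1604 to 1671 in miR-21 vector swimming, so empty vector swimming was below each of the other 3 groups. Bnip3 ranged from 170 to 249, 130 to 161, 191 to 268 and 147 to 205 CPM in the same order.

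The promoter windows of RefSeq (GRCm38.p6, 250 bases before a start to 50 after) were searched on both strands for CACGTG, the core letters read by TFEB and related factors, and TGACNNNGC, the core of the antioxidant response element. Neither motif contains the other. Windows were listed for 7 of the 10 genes. CACGTG was in the windows of 2 of these 7, Atg5 and Atg7, and in at least 1 window of 8.09% of the 27025 genes with a window (7.15% of all 32851 windows). TGACNNNGC was in those of 2 of 7, Vmp1 and Map1lc3b, and in at least 1 window of 14% of genes (12.4% of all windows). Genes with several windows, as Vmp1 with 3, have more letters in which to match. The first of 3 listed Vmp1 windows, minus strand, and that of Atg5, plus strand, are shown with the match in capitals, Vmp1 as the called gene and Atg5 as the gene of the 10 most like it over the 23 libraries.
Vmp1 chr11:86683787-86684086: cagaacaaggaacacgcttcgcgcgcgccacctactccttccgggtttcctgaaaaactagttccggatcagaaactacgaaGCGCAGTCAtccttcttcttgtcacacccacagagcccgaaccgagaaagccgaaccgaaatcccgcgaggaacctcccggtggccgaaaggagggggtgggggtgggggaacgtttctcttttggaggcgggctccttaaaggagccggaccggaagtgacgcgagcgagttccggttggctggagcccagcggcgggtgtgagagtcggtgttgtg
Atg5 chr10:44268089-44268388: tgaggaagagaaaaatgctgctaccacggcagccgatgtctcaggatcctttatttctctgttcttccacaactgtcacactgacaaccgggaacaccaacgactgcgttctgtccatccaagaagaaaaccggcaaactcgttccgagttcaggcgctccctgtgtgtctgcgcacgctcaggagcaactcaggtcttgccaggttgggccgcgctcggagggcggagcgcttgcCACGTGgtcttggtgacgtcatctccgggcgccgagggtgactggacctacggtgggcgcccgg
These matches describe letters and not binding.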

How the data were processed

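Hearts in 4 groups were measured by sequencing of mRNA with a stranded kit, per the labels' protocols; 23 of the 24 labelled samples were used. The authors deposited raw read counts per gene, FPKM values, and log2 fold changes with p-values and q-values of their own comparisons; the deposited FPKM equal the count over the library total and 1 length per gene. The genome build was GRCm39, per the submitters' processing notes; for the aligner, the counter, its strand setting and its treatment of reads with several matches, the labels' protocols give nothing. Of their per-sample columns, 46 were not used. Counts were tested with edgeR 4.0.16 (R 4.3.3): filterByExpr, TMM, a robust quasi-likelihood fit over all 23 libraries, Benjamini-Hochberg adjustment over 13501 genes, called at an adjusted p under 0.05. SE is the log2 difference over the root of F. CPM are TMM-normalised; log2 CPM used a prior count of 2. The fit was tested on simulated data. Adipocyte-high libraries had a score of more than 1.5 (log2) above the median library. limma 3.58.1 and DESeq2 1.42.0 were alternatives. The 10 genes, the role lists and the marker lists were chosen with earlier results of these data known. Named beside the 10 genes are called genes of the role lists (at most 12 a comparison), 6 genes of chromosome 11 listed as neighbours of Vmp1, and the 5 genes at each end of the correlation with Vmp1, and the 5 highest after centring by group (mean of at least 1 CPM). Genes named from fits without some libraries were chosen after their values were seen. The reference tables are of GRCm38.p6, not the build of the files, and were used for names, sequences and distances only.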

Additional observations from a re-analysis of the deposited data

Results flagged for a closer look

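In 40 sets of values (10 genes in 4 groups), 4 had a library far from the others by Dixon's test on the gap to the nearest library over the range of the group; chance alone flags about 1 in 20 groups. Vmp1 in empty vector control replicate 2 was at 88.3 CPM, with the next at 63.4 (gap over range 0.695). Sqstm1 in miR-21 vector swimming replicate 3 was at 717 CPM, with the next at 506 (0.751). Sqstm1 in empty vector control replicate 4 was at 542 CPM, with the next at 428 (0.648). Gabarapl1 in miR-21 vector control replicate 4 was the lowest of its group at 101 CPM, with the next at 115 (0.634). Empty vector control replicate 2 is an adipocyte-high library, and the other 2 flagged libraries of Sqstm1 and that of Gabarapl1 are not. No difference between the swimming effects was called for any of the 10 genes by edgeR.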

How the results depend on the processing

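In 50 results (10 genes in 5 comparisons) 1640 alternative values were computed, and 74 had the opposite sign. Of these 74, 0 were called in either setting, and the cause was not tested. Vmp1 for swimming under the empty vector is also listed below, with the marker scores and with the number series. There it kept the negative sign of its -0.44 and lost its call. With adipocyte and mesothelial marker scores in the model the log2 differences were Map1lc3a -0.083, Map1lc3b -0.10, Ulk1 -0.23 and Vmp1 -0.11 for swimming under the empty vector, Atg5 0.037 and Vmp1 0.092 for the vectors in control mice, Bnip3l -0.014 and Vmp1 -0.061 for the vectors in swimming mice, Atg5 -0.014 for swimming under the miR-21 vector, Atg7 -0.099, Bnip3l -0.012, Map1lc3b 0.15 and Vmp1 -0.15 for the difference of the swimming effects. Without the adipocyte-high libraries the log2 differences were Ulk1 -0.019 for swimming under the empty vector, Atg5 0.028 and Sqstm1 -0.0028 for the vectors in control mice, Bnip3l -0.0048 and Vmp1 -0.028 for the vectors in swimming mice, Atg5 -0.022 for swimming under the miR-21 vector, Atg7 -0.049 and Map1lc3b 0.086 for the difference of the swimming effects. With the number series in the model the log2 differences were Atg7 -0.046, Map1lc3a -0.11, Map1lc3b -0.10, Ulk1 -0.15 and Vmp1 -0.23 for swimming under the empty vector, Becn1 0.020, Map1lc3b -0.058, Ulk1 -0.038 and Vmp1 0.0040 for swimming under the miR-21 vector, Map1lc3b 0.044 for the difference of the swimming effects. With limma voom the log2 differences were Ulk1 -0.026 for swimming under the empty vector, Bnip3l -0.013 and Vmp1 -0.062 for the vectors in swimming mice, Atg7 -0.042 and Map1lc3b 0.062 for the difference of the swimming effects. Without the count filter, Becn1 was 0.011 for the vectors in control mice. With upper quartile scaling, Map1lc3b was 0.0050 for the difference of the swimming effects. For swimming under the empty vector the called autophagy genes of 108, with the share of all tested genes called by the same fit, were 18 (16.5%) with the marker scores, 12 (12.5%) with limma voom, 4 (4.76%) without the count filter and 0 (1.21%) with the number series in the model. For the vectors in control mice the called autophagy genes were 6 (9.15%) with DESeq2, 0 (0.00741%) with the marker scores, 10 (9.68%) with limma voom, 11 (12.5%) with only the 2 groups compared in the fit, 5 (6.75%) with the number series in the model and 5 (5.76%) without the adipocyte-high libraries. For the vectors in swimming mice the called autophagy genes were 8 (7.18%) with DESeq2, 24 (16.9%) with the marker scores, 29 (19.8%) with limma voom, 1 (1.26%) with only the 2 groups compared in the fit, 7 (5.24%) with the number series in the model and 24 (17.3%) without the adipocyte-high libraries. For swimming under the miR-21 vector the called autophagy genes were 1 (2.80%) with DESeq2 and 8 (7.97%) with the number series in the model. For the difference of the swimming effects the called autophagy genes were 4 (5.33%) with DESeq2 and 1 (0.422%) with the marker scores. For swimming under the empty vector the called genes of the 10 were 0 with the marker scores and 0 with the number series in the model. For the vectors in swimming mice the called genes of the 10 were 2 with the marker scores, 2 with limma voom and 2 without the adipocyte-high libraries. For swimming under the miR-21 vector the called genes of the 10 were 1 with the number series in the model. For the difference of the swimming effects the called genes of the 10 were 1 with DESeq2. For swimming under the empty vector, leaving out each library in turn gave Bnip3l -0.017 to 0.031, Sqstm1 -0.087 to 0.035, Ulk1 -0.033 to 0.092, Vmp1 -0.49 to -0.32, called autophagy genes 2 to 11 (4.50% to 14.2% of all genes) and called genes of the 10 0 to 1. For the vectors in control mice, leaving out each library in turn gave Atg5 -0.086 to 0.0068, Atg7 -0.022 to 0.061, Becn1 -0.043 to 0.023, called autophagy genes 0 to 25 (0.127% to 21.3% of all genes) and called genes of the 10 0 to 1. For the vectors in swimming mice, leaving out each library in turn gave Vmp1 -0.022 to 0.19, called autophagy genes 2 to 23 (2.45% to 13.8% of all genes) and called genes of the 10 0 to 2. For swimming under the miR-21 vector, leaving out each library in turn gave Atg5 -0.025 to 0.062 and Map1lc3b -0.027 to 0.092. For the difference of the swimming effects, leaving out each library in turn gave Atg7 -0.018 to 0.092, Map1lc3b -0.065 to 0.051, Ulk1 -0.033 to 0.15 and called autophagy genes 0 to 1 (0.134% to 2.63% of all genes). In these ranges over left-out libraries, the ends of the counts and of the shares need not come from the same fit. No paired analysis was possible because the groups share no replicate numbers in the labels.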

Other observations

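The ratio of Map1lc3a to Map1lc3b, in FPKM within each library, was looked at after the values were seen and is given as a description. It was 2.59 to 3.70 in empty vector control, 3.12 to 3.60 in empty vector swimming and 3.24 to 3.61 in miR-21 vector control. In miR-21 vector swimming replicates 1 to 5 it was 2.66, 2.50, 2.53, 2.94 and 3.14, so all 5 were below all 6 miR-21 vector control libraries, and 4 of 5 were below all 6 empty vector swimming libraries. The adipocyte-high libraries had ratios of 2.75 and 2.59 (empty vector control) and 2.50. Without the adipocyte-high libraries, the 5 genes with log2 CPM most like Vmp1 over 20 libraries were Cldnd1 (Pearson's r 0.89), Tmed5 (0.88), Higd1a (0.84), Ptpn4 (0.81) and Etf1 (0.81), and over all 23 libraries their r was -0.09 to 0.62.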
